A study of Homo sapiens with 21 samples.

Results

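ADAMTS proteases are secreted metalloproteinases that carry thrombospondin repeats and cut proteins of the extracellular matrix. The genes described here are the 10 members of the family named ADAMTS1, ADAMTS2, ADAMTS3, ADAMTS4, ADAMTS5, ADAMTS6, ADAMTS7, ADAMTS9, ADAMTS10 and ADAMTS12, each with a normalised read count of at least 10 in at least 3 libraries. They are 10 of the 11579 genes that reached this level, out of 16383 genes listed, and 10 of the 13 ADAMTS genes listed. The members were chosen by name and by this level, and ADAMTS2 was singled out with its higher level in CDK4 knockdown and in CDK4 and CDK6 dual knockdown already known. ADAMTS2 is therefore described without a test wherever those libraries enter a comparison. ADAMTS4 was the member nearest the threshold, with 17 of 21 libraries at 10 or more and a highest value of 30.4. ADAMTS20 lay under it, with a highest value of 5.59 and 0 libraries at 10 or more, and ADAMTS8 and ADAMTS13 passed it but are not among the 10.

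The cells were the IMR90 line of human lung fibroblasts, of a genotype labelled wild type, in 7 groups of 3 poly(A) RNA libraries. Cells of 6 groups were irradiated, which makes fibroblasts senescent, received 5 nM of siRNA on day 4 and again on day 7, and were harvested on day 10. NT3 and NT4 are control siRNAs with no target. The other irradiated groups had knockdown of CCND1, the gene of cyclin D1, of its partner kinases CDK4 or CDK6, or of both kinases at once (the dual knockdown). The proliferating group was labelled untreated, so irradiation and transfection cannot be told apart in a comparison with it. The series text numbers the non-targeting siRNAs otherwise than the sample titles, whose numbers are kept here, and 1 siRNA name is given per target. Nothing in the labels says whether the 3 libraries of a group came from separate cultures, and p-values then measure only the spread between these libraries.

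ADAMTS enzymes are made as inactive precursors. Proprotein convertases such as furin remove the propeptide, and tissue inhibitors such as TIMP3 and uptake by the receptor LRP1 limit the active enzyme outside the cell. In connective tissue the members fall into groups by substrate: the procollagen N-proteinases (ADAMTS2, ADAMTS3) trim fibrillar procollagens so that they can assemble into fibrils, the proteoglycanases (ADAMTS1, ADAMTS4, ADAMTS5, ADAMTS9) cut large aggregating proteoglycans such as versican and aggrecan, ADAMTS7 and ADAMTS12 cut cartilage oligomeric matrix protein (COMP), and ADAMTS6 and ADAMTS10 act at fibrillin microfibrils. Bulk RNA reports transcripts and not protease activity.

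Depth over the listed genes was 12892442 to 21822152 reads a library. The targeted transcript was left at 11.8% (CCND1), 8.67% (CDK4) and 16.4% (CDK6) of the control mean in single knockdowns and at 9.41% (CDK4) and 20.6% (CDK6) in the dual knockdown. NT3 replicate 3 was the shallowest library and stood apart, with an SD of 0.344 of its log2 values about its group means, against 0.193 to 0.256 in the others. All 9 fibroblast markers checked were at 10 or more in every library. Epithelial markers summed to 14.9 to 55.0, of which 1 of 5 genes reached 10, and PTPRC of leukocytes and CDH5 of endothelium were at or near 0. Of the other leukocyte and endothelial markers, CD68 had group medians of 669 to 1503 and TEK of 1791 to 4268. In bulk samples fewer cells of a type and less RNA per cell cannot be told apart.

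Per kb of exon, ADAMTS1 had the highest level of the 10 members in each of the 7 groups, from 601 in proliferating cells to 1607 in NT3. ADAMTS12, ADAMTS2 and ADAMTS5 were the next 3 in every irradiated group, and over all 7 groups their means per kb were 73.5 to 321, 70.7 to 297 and 37.9 to 217. ADAMTS4 was the lowest, at 0.558 to 2.38 per kb, and its fewest reads in a library were 3. Within a group the members' spread was widest for ADAMTS4 in the dual knockdown, at a coefficient of variation of 79.0%.

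**Figure D1:**
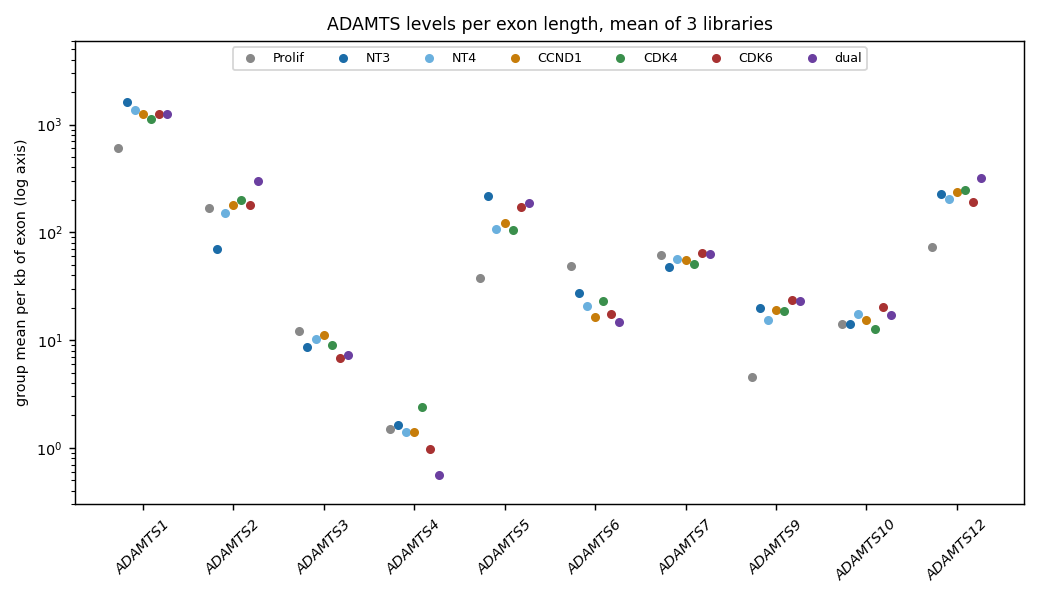
Mean normalised count per kb of exon (log axis) for the 10 ADAMTS genes, with 1 point per group of 3 libraries. ADAMTS1 lies highest in every group and ADAMTS4 lowest, and the dual knockdown has the highest point of ADAMTS2 (297) and of ADAMTS12 (321).

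ADAMTS2 and ADAMTS12 were the members with their highest level in the dual knockdown and no overlap with any other group there, and the promoter bases in front of both genes are shown for that reason. The sequences are from RefSeq on GRCh38.p14 and hold the 250 bases before the start annotated there, written along the gene. Capitals mark matches to the searched motifs: GGGCGG (GC box), TGANTCA (AP-1), TTTNGCGC (E2F), GGAATG (TEAD), CAGAC (SMAD) and TATAAA (the box named TATA), on either strand.
ADAMTS2: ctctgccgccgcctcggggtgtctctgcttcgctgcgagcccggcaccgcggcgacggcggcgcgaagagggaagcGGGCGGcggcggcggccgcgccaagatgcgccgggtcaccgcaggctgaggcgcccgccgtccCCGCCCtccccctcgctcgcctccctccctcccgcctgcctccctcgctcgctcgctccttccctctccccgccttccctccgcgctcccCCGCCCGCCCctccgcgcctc
ADAMTS12: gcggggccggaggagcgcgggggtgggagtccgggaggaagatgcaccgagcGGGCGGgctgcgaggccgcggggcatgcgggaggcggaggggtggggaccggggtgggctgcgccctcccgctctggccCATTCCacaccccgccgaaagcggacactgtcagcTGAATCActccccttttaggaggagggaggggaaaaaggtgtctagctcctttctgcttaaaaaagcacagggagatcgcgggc
The ADAMTS2 window (chr5:179345462-179345711, minus strand) held 80.0% G or C, 40 CG pairs and 4 GC boxes, the last 2 of which overlap, and no match to the other motifs in these letters. The ADAMTS12 window (chr5:33891991-33892240, minus strand) held 68.4% G or C, 21 CG pairs, and 1 match each to GC box, AP-1 and TEAD. In GENCODE, used for the gene positions below, ADAMTS12 starts at 33892019, so the last bases of its window lie within the gene there. Over 35116 promoters of that length the median was 58.0% G or C and 11 CG pairs, and a GC box was in 42.6%, AP-1 in 6.57%, TEAD in 11.9%, SMAD in 38.0%, TATA box in 10.7% and E2F in 1.51%. Promoters of 6 members were matched. ADAMTS7 held 7 GC boxes and ADAMTS10 held 5 and a TATA box, ADAMTS3 held 1 GC box and 1 SMAD match, and ADAMTS6 held 1 TEAD and 1 SMAD match. These matches are descriptions of letters only.

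ADAMTS2 (chr5:179110853-179345461 on hg38, minus strand, protein-coding) encodes the N-proteinase that removes the amino propeptide of types I, II and III procollagen, and its inherited loss causes a fragile-skin form of Ehlers-Danlos syndrome. Its normalised counts were 1519, 1517 and 1479 in proliferating cells, 713, 668 and 521 in NT3, and 1416, 1327 and 1299 in NT4. With CCND1 knockdown they were 1621, 1768 and 1435, and with CDK6 knockdown 1686, 1514 and 1644. With CDK4 knockdown they were 1617, 1905 and 1839, and with the dual knockdown 2859, 2555 and 2571. In words, the dual libraries were above every other library, the NT3 libraries below every other, and the 3 single knockdowns overlapped one another and stood above NT4. By mean ± SD (n = 3) the order ran from the dual knockdown (2662 ± 171) through CDK4 (1787 ± 151), CDK6 (1615 ± 89.4), CCND1 (1608 ± 167), proliferating (1505 ± 22.5) and NT4 (1347 ± 60.7) to NT3 (634 ± 100.8). Of these neighbours, CDK4 and CDK6, CDK6 and CCND1, and CCND1 and proliferating overlapped.

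The dual knockdown level of ADAMTS2 was 1.53 higher than the controls on the log2 scale (SE 0.08), or 2.89-fold, and the log2 difference was 2.08 against NT3 alone and 0.98 against NT4 alone. CDK4 knockdown was higher by 0.95 (SE 0.08), by 1.50 against NT3 and by 0.40 against NT4. Between knockdowns, the dual exceeded CDK4 by 0.58 and CDK6 by 0.72 (SE 0.10 for both), with no overlapping library. Here and below, a log2 difference is of log2(normalised count + 1), and the controls are the mean of the NT3 and NT4 groups. With CCND1 and CDK6 knockdown ADAMTS2 was 0.80 and 0.81 higher than the controls (SE 0.08, limma adjusted p = 3.19e-07 and 1.05e-07). Against NT4 alone these differences were 0.25 (limma adjusted p = 0.0707) and 0.26 (limma adjusted p = 0.0428). These tests share their control libraries with the comparisons in which ADAMTS2 was picked, so they are not independent of that choice.

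ADAMTS3 (chr4:72280969-72569221, minus strand, protein-coding) encodes a related N-proteinase, known also for activating VEGF-C. Its level was low, with as few as 41 reads in a library, and 70 of its exon bases (0.999%) overlap an antisense transcript. Group means ± SD (n = 3) were 85.1 ± 6.30 in proliferating cells, 60.9 ± 2.54 in NT3, 71.4 ± 12.5 in NT4, 78.2 ± 6.32 with CCND1, 63.3 ± 6.74 with CDK4, 48.2 ± 7.17 with CDK6 and 50.8 ± 2.38 with dual knockdown. The CDK6 and dual libraries were the lowest, none of them reaching a control library, and the CCND1 libraries overlapped the proliferating ones. ADAMTS3 fell with CDK6 knockdown by 0.45 on the log2 scale (SE 0.13, limma adjusted p = 0.00929) and in the dual knockdown by 0.36 (SE 0.13, limma adjusted p = 0.0295). Against NT3 alone neither passed the test, at -0.34 (limma adjusted p = 0.0719) and -0.26 (limma adjusted p = 0.177). The dual call was also lost without any 1 of the 3 dual libraries, without NT3 replicate 1 and without NT4 replicate 3 (limma adjusted p = 0.0505 to 0.105). The CDK6 call was lost without CDK6 replicate 1 (limma adjusted p = 0.0749). Counting changes of processing too, 9 of 19 alternative fits lost the dual call.

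**Figure D2:**
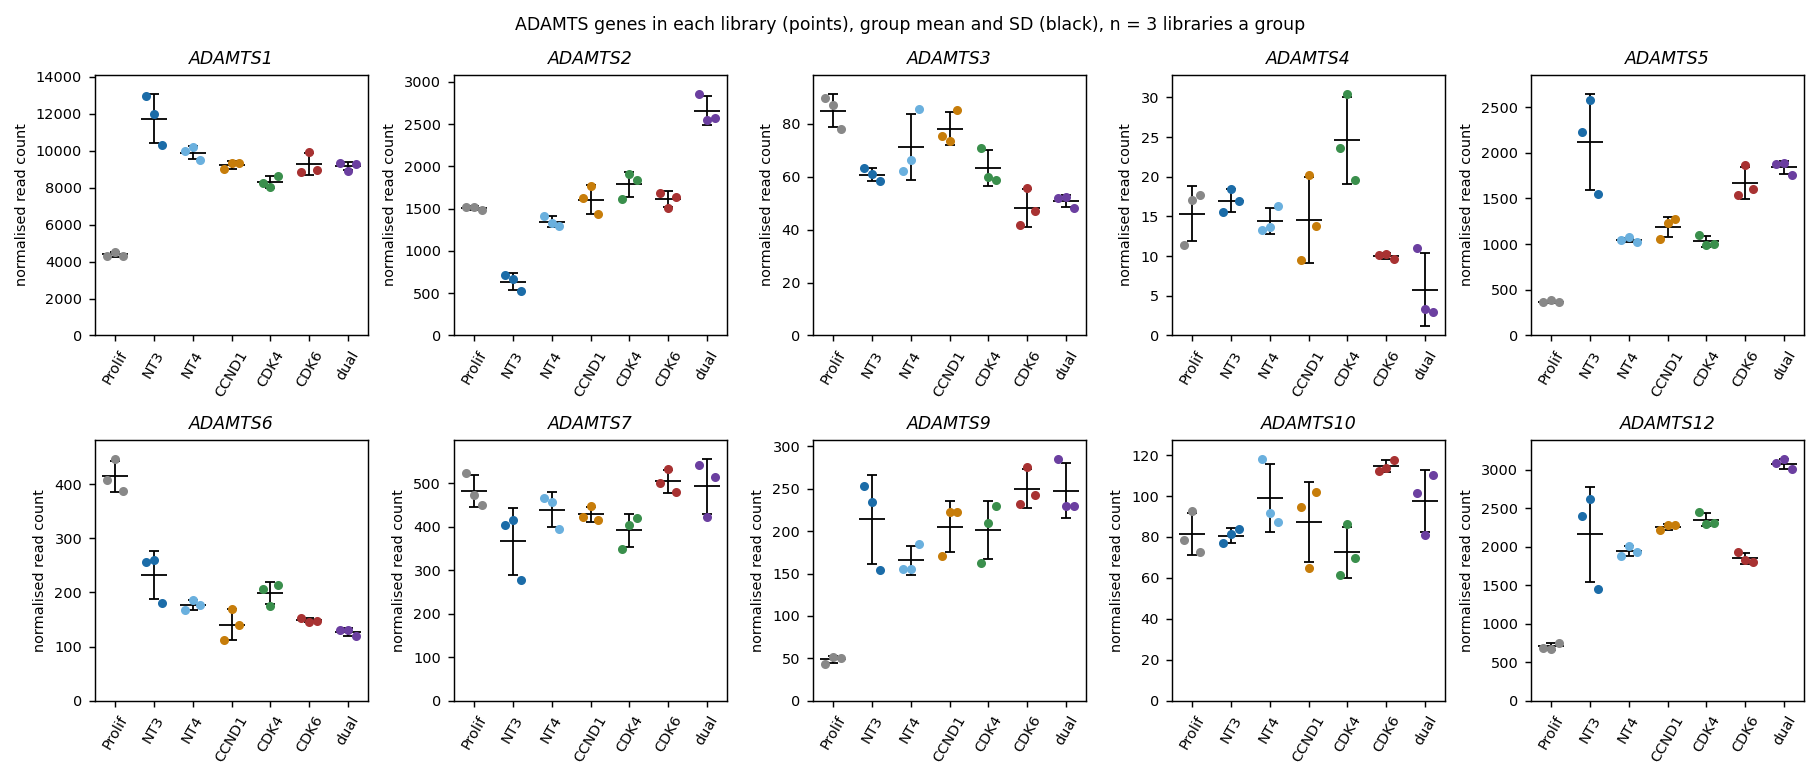
Normalised read count of each ADAMTS gene in all 21 libraries (points), with group mean and SD in black, n = 3 libraries a group. ADAMTS2 is highest in the dual knockdown (2555 to 2859) and lowest in NT3 (521 to 713), ADAMTS12 is highest in the dual knockdown (3013 to 3137), and ADAMTS1, ADAMTS5, ADAMTS9 and ADAMTS12 are lowest in proliferating cells.

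The fibrillar procollagens that ADAMTS2 and ADAMTS3 trim were counted in the same libraries. Of the 6 procollagen genes tested, 5 rose in the dual knockdown. Of all tested genes 22.5% passed there as higher and 44.0% in either direction. The median log2 difference of the 6 was 0.58, against 0.00 over all tested genes. COL1A1, a chain of type I collagen, was 419002, 314749 and 360767 in the dual libraries and 186736 to 241664 in the 6 controls, a log2 difference of 0.71 (SE 0.09, limma adjusted p = 8.41e-07). COL5A1, a chain of type V collagen, rose by 0.70 (SE 0.08, limma adjusted p = 3.60e-07), from 7946 to 11156 in the controls to 15680 to 18220. COL1A2 rose by 0.64 (SE 0.07, limma adjusted p = 3.60e-07), and these 3 genes passed the test against NT3 alone and NT4 alone as well. BMP1, the C-proteinase that trims the other end of procollagen, rose by 0.47 (SE 0.06, limma adjusted p = 2.44e-06), with 2479 to 3126 in dual libraries above 1934 to 2132 in the controls. The fibroblast marker sum, which holds 3 of these collagens, ranged from 681903 to 867109 in the dual libraries against 451735 to 562545 in the controls, and its part in the ADAMTS2 difference was not tested.

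Among irradiated cells the dual knockdown also passed as higher than CDK6 knockdown in 4 of the 6 procollagen genes (6.05% of all tested genes) and as higher than CDK4 knockdown in 5 (15.8%). With CDK6 knockdown alone, 3 of 6 passed the test against the controls as higher (21.1% of all tested genes), by at most 0.29 (COL5A2), and none of these 3 passed against NT4 alone, where limma adjusted p was 0.242 to 0.476. PCOLCE, the enhancer of the C-proteinase, was 4378 to 4458 in proliferating cells and 517 to 956 in the controls, so that it fell by 2.53 on the log2 scale (SE 0.10, limma adjusted p = 1.26e-15). Its knockdown libraries lay between 697 and 917.

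**Figure D3:**
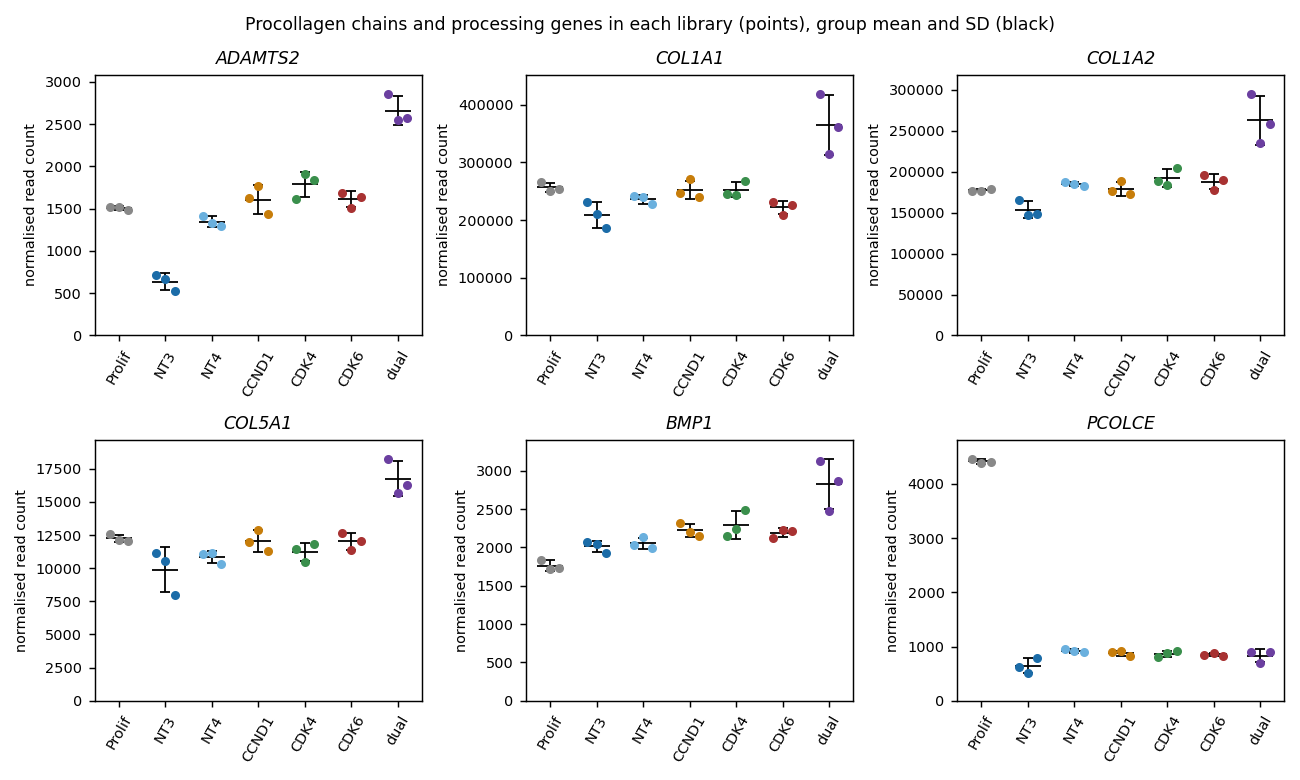
Normalised read count in each of 21 libraries (points) for ADAMTS2, 3 procollagen chains, BMP1 and PCOLCE, with group mean and SD in black, n = 3 libraries a group. The dual knockdown has the highest group mean in the first 5 panels, while PCOLCE is highest in proliferating cells (4378 to 4458).

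ADAMTS1 (chr21:26835755-26845409) and ADAMTS5 (chr21:26917922-26967088) are minus-strand neighbours on chromosome 21. ADAMTS1, a versican-cleaving protease, had counts of 4323, 4530 and 4317 in proliferating cells, 12944, 11965 and 10297 in NT3, and 9990, 10189 and 9514 in NT4. It had 8989, 9348 and 9316 with CCND1, 8272, 8016 and 8645 with CDK4, 8863, 9939 and 8957 with CDK6, and 9318, 8918 and 9288 with dual knockdown. Every irradiated library was above the proliferating ones, and the CDK4 libraries were the lowest of the irradiated. ADAMTS1 fell in all 4 knockdowns against the controls, by 0.37 with CDK4 (SE 0.06, limma adjusted p = 1.19e-04) and by 0.22 to 0.23 in the others. Against NT4 alone, the fall with CDK4 knockdown passed the test (0.25, limma adjusted p = 0.0154) and those of the other 3 did not, at -0.10 to -0.11.

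ADAMTS5, known as a main aggrecanase of cartilage, separated the 2 controls more than any member but ADAMTS2. Its counts were 364, 384 and 363 in proliferating cells, 2233, 2579 and 1544 in NT3, and 1042, 1073 and 1026 in NT4. With CCND1 knockdown they were 1060, 1229 and 1273, and with CDK4 knockdown 1099, 996 and 998. With CDK6 knockdown they were 1534, 1872 and 1609, and with dual knockdown 1879, 1884 and 1761. The libraries with CDK6 knockdown, alone or dual, were above all libraries of NT4, CCND1 and CDK4 and overlapped NT3. The direction followed the control: the dual knockdown was 0.32 higher than the mean of the controls (SE 0.10, limma adjusted p = 0.0167), 0.81 higher than NT4 (limma adjusted p = 1.67e-05) and -0.17 from NT3 (limma adjusted p = 0.263). The falls of 0.31 with CCND1 and 0.52 with CDK4 knockdown (limma adjusted p = 0.0264 and 0.00158) became 0.18 and -0.02 against NT4 alone, where neither passed. The dual call was lost without dual replicate 1 or 2, and the CCND1 call without CCND1 replicate 1 or 2 (limma adjusted p = 0.0538 to 0.164), and the CDK6 difference of 0.18 did not pass (limma adjusted p = 0.185). With CDK6 knockdown ADAMTS5 was higher than NT4 alone by 0.67 (limma adjusted p = 2.23e-04) and differed by -0.31 from NT3 alone (limma adjusted p = 0.0377), and without NT3 replicate 2 the difference from both controls passed (0.26, limma adjusted p = 0.0237). Comparisons that use no control gave 0.69 for CDK6 against CDK4 knockdown (SE 0.12, limma adjusted p = 1.11e-04) and 0.84 for dual against CDK4 knockdown (SE 0.12, limma adjusted p = 1.43e-05).

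ADAMTS9 (chr3:64515654-64688000, minus strand), which cuts versican and aggrecan, was at 43.7 to 52.1 in proliferating libraries and at 154 to 253 in the irradiated controls. Knockdown means ± SD (n = 3) were 205 ± 30.4 with CCND1, 201 ± 34.3 with CDK4, 250 ± 22.9 with CDK6 and 248 ± 32.0 with dual knockdown. The CDK6 and dual libraries were above every NT4 library and overlapped NT3. Against the controls ADAMTS9 rose by 0.42 with CDK6 (SE 0.15, limma adjusted p = 0.0232) and by 0.41 in the dual knockdown (SE 0.15, limma adjusted p = 0.0276), and neither passed against NT3 alone (limma adjusted p = 0.227 and 0.264). The CDK6 call was lost without CDK6 replicate 2 or 3, and the dual call without dual replicate 1, NT4 replicate 1 or NT4 replicate 2, at limma adjusted p of 0.0505 to 0.166. Of its exon bases 174 (1.63%) overlap the antisense gene ADAMTS9-AS1.

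ADAMTS4 (chr1:161184302-161199054, minus strand), the other classical aggrecanase, was near the detection limit. Its counts were 23.7, 30.4 and 19.6 with CDK4 knockdown, 10.2, 10.2 and 9.58 with CDK6, and 11.0, 3.28 and 3.00 with dual knockdown, against 13.4 to 18.4 in the 6 controls. CDK4 libraries were above and CDK6 and dual libraries below all control libraries. The CDK6 difference of -0.60 from the controls did not pass (limma adjusted p = 0.142). Dual and CDK6 libraries overlapped, and their difference of -0.90 did not pass (limma adjusted p = 0.117). ADAMTS4 fell in the dual knockdown by 1.49 (SE 0.32, limma adjusted p = 6.81e-04), and it passed against either control alone. With a pseudocount of 10 in place of 1 the fall was -0.74. The CDK4 difference of 0.60 did not pass (limma adjusted p = 0.225), while dual against CDK4 knockdown differed by -2.09 (SE 0.37, limma adjusted p = 1.51e-04). With 3 to 30 reads per library, these values carry large counting error.

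ADAMTS12 (chr5:33523535-33892019, minus strand), a COMP-cleaving protease, had counts of 687, 677 and 756 in proliferating cells, 2408, 2623 and 1456 in NT3, and 1884, 2010 and 1938 in NT4. With CCND1 knockdown it had 2215, 2285 and 2282, with CDK4 2451, 2299 and 2314, with CDK6 1933, 1824 and 1798, and with dual knockdown 3085, 3137 and 3013. The dual libraries were above all others, and NT3 replicate 3 was the lowest irradiated library. ADAMTS12 rose in the dual knockdown by 0.61 on the log2 scale (SE 0.11, limma adjusted p = 1.18e-04), by 0.55 against NT3 alone and by 0.66 against NT4 alone. It did not pass the test with CDK4 (0.22, limma adjusted p = 0.190) or CDK6 knockdown (-0.12, limma adjusted p = 0.384). The dual was 0.73 above CDK6 knockdown (SE 0.13, limma adjusted p = 3.69e-04) and 0.39 above CDK4 knockdown (SE 0.13, limma adjusted p = 0.0243), and the second call was lost in 4 of the 6 fits that left out 1 library of these groups (limma adjusted p = 0.0627 to 0.0724). Without NT3 replicate 3, ADAMTS12 with CDK6 knockdown fell by 0.26 against the controls (limma adjusted p = 3.49e-05). Without NT3 replicate 2 it rose with CCND1 and CDK4 knockdown, by 0.24 and 0.30 (limma adjusted p = 0.0486 and 0.0269).

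ADAMTS7 (chr15:78759206-78811464, minus strand) has 3 annotated pseudogene copies on chromosome 15, ADAMTS7P1, ADAMTS7P3 and ADAMTS7P4, so its values are uncertain. Its group means ran from 366 ± 76.9 in NT3 to 504 ± 26.7 with CDK6 knockdown (SD, n = 3), and every pair of neighbours in the order of groups overlapped. ADAMTS7 rose with CDK6 knockdown by 0.34 (SE 0.11, limma adjusted p = 0.0157) and in the dual knockdown by 0.30 (SE 0.11, limma adjusted p = 0.0302). Neither passed against NT4 alone (limma adjusted p = 0.251 and 0.342). The CDK6 call was lost without CDK6 replicate 2, and the dual call without dual replicate 1, dual replicate 3 or NT4 replicate 3 (limma adjusted p = 0.0688 to 0.167).

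ADAMTS6 (chr5:65148738-65481920, minus strand) and ADAMTS10 (chr19:8580240-8610735, minus strand) encode related proteases tied to microfibrils, and mutations of ADAMTS10 cause a Weill-Marchesani syndrome. ADAMTS6 had 408, 446 and 388 in proliferating cells, 255, 259 and 181 in NT3, and 168, 186 and 177 in NT4. It had 111.7, 169 and 140 with CCND1, 206, 176 and 214 with CDK4, 154, 146 and 147 with CDK6, and 130, 131 and 119 with dual knockdown. The proliferating libraries were highest and the dual libraries below every control. ADAMTS6 fell in the dual knockdown by 0.66 (SE 0.12, limma adjusted p = 1.31e-04) and passed against NT3 alone (-0.85) and NT4 alone (-0.48). It also fell with CCND1 (-0.54, limma adjusted p = 0.00184) and CDK6 knockdown (-0.43, limma adjusted p = 0.00643), but against NT4 alone neither passed (limma adjusted p = 0.0821 and 0.196). ADAMTS10 had group means of 72.5 ± 12.6 with CDK4 to 114 ± 3.02 with CDK6 knockdown (SD, n = 3). Its difference from the controls passed in no knockdown. The 0.36 with CDK6 knockdown (limma adjusted p = 0.0599) passed against NT3 alone (0.50, limma adjusted p = 0.0229) and without NT4 replicate 1 (0.43, limma adjusted p = 0.0309). CDK6 exceeded CDK4 knockdown by 0.67 (SE 0.17, limma adjusted p = 0.00473).

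Across the family, 8 of 10 members passed the test between irradiated controls and proliferating cells, where 68.6% of all tested genes passed. ADAMTS1, ADAMTS5, ADAMTS9 and ADAMTS12 rose, by 1.29, 1.99, 1.91 and 1.51 on the log2 scale (2.45-, 3.97-, 3.76- and 2.86-fold), and ADAMTS2, ADAMTS3, ADAMTS6 and ADAMTS7 fell, by 0.71, 0.37, 1.04 and 0.27. The share of members that rose or fell is near these backgrounds (32.6% of genes rose and 36.1% fell). The size of the members' differences had a median of 0.88, against 0.41 over all tested genes. Against each control alone in the same direction, 5 members passed: the 4 that rose, and ADAMTS6. That background was 52.4%. ADAMTS2 fell by 1.26 against NT3 (limma adjusted p = 1.47e-10) and differed by -0.16 against NT4 (limma adjusted p = 0.148). The ADAMTS2 tests here use the control libraries of the comparisons in which it was picked, so they are not independent of that choice. The ADAMTS3 and ADAMTS7 falls, whose libraries overlapped, did not pass against NT4 alone (limma adjusted p = 0.140 and 0.367). Both were also lost without proliferating replicate 1 or 2, and the ADAMTS7 fall without NT3 replicate 3 or NT4 replicate 3 (limma adjusted p = 0.0522 to 0.146). The libraries of 6 members did not overlap between the arms, and 54.1% of all genes did not.

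**Figure D4:**
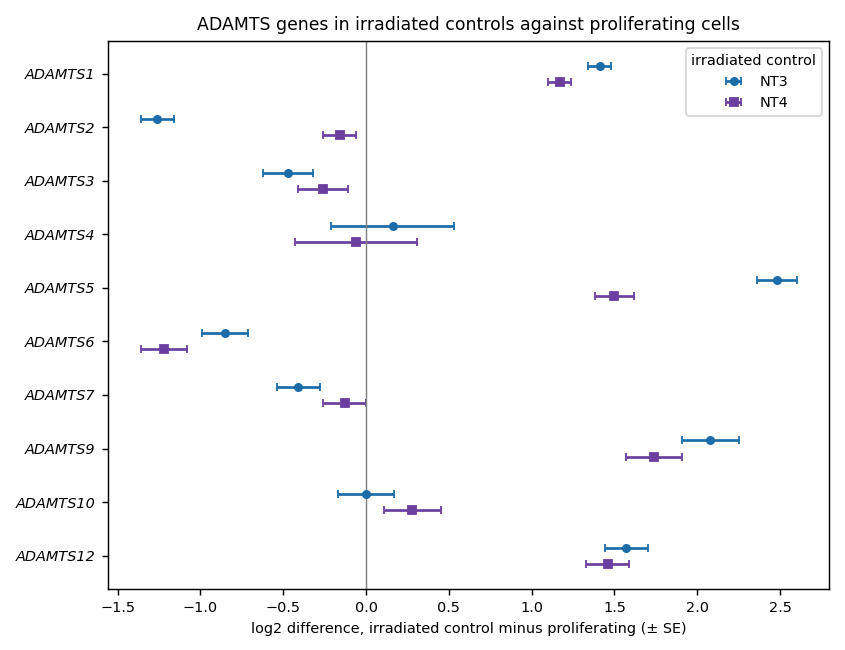
Log2 difference (± SE) of each ADAMTS gene in irradiated cells with NT3 (circles) or NT4 (squares) siRNA against proliferating cells, n = 3 libraries a group. ADAMTS1, ADAMTS5, ADAMTS9 and ADAMTS12 lie right of 0 and ADAMTS6 left of 0 for both controls, and ADAMTS2 is at -1.26 for NT3 and -0.16 for NT4.

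The lists of genes around the family were compared in the same way between irradiated controls and proliferating cells. There 68.6% of all tested genes passed, 32.6% higher and 36.1% lower. Of the other ADAMTS genes, ADAMTS13, the von Willebrand factor protease, rose by 1.60 (limma adjusted p = 1.73e-09), from a mean of 15.5 to 49.5. ADAMTS8 rose by 0.62 (limma adjusted p = 3.50e-04) but did not pass against NT4 alone (0.18, limma adjusted p = 0.324). Among 4 ADAMTS-like proteins tested, which lack the protease domain, PAPLN and ADAMTSL4 rose by 0.87 and 0.68, and THSD4 fell by 0.82. Of 7 genes for inhibitors and clearance, 3 rose and 1 fell. TIMP1 rose by 1.69 (limma adjusted p = 1.10e-12) and TIMP3, the TIMP best known for inhibiting ADAMTS proteases, by 0.68 (limma adjusted p = 9.59e-12), from 10836 to 17637. Of 5 genes for activation and modification 3 rose and none fell: the convertase PCSK5 by 1.47, the glycosyltransferase POFUT2 by 0.74 and FURIN by 0.30.

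Substrate genes that passed between irradiated controls and proliferating cells included both higher and lower ones. Of the 6 procollagen genes 4 fell, COL3A1 by 0.65 (limma adjusted p = 1.12e-06), and the 1 that rose, COL2A1, stayed at a mean of 7.42. Of 5 proteoglycan and partner genes 2 rose and 2 fell. HAPLN1 rose by 3.37, from a mean of 2.19 to 29.7, and the hyaluronan receptor CD44 by 1.22. The small proteoglycan BGN fell by 0.88. Of 11 other substrates and partners 4 rose and 4 fell. TFPI2 rose by 2.51 (limma adjusted p = 4.76e-14), the basement membrane gene NID1 fell by 1.41, and COMP, at a mean of 16.0 in the controls, was at 0 reads in the proliferating libraries. For comparison, 7 of 9 ADAM genes (6 up, 1 down) and 11 of 11 MMP genes (9 up, 2 down) passed here, and a difference from the ADAMTS family was not tested.

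The 2 non-targeting controls differed from each other in 3 of 10 members, close to the 27.8% of all genes that did. ADAMTS2 was 1.10 higher in NT4 than in NT3 (SE 0.10, limma adjusted p = 3.13e-08), ADAMTS5 0.98 lower and ADAMTS1 0.24 lower (limma adjusted p = 3.22e-06 and 0.0104). The control libraries also entered the comparisons in which ADAMTS2 was picked, so its test is not independent of that choice. Without NT3 replicate 3, 6 members passed, the added ones being ADAMTS6 (-0.54), ADAMTS9 (-0.56) and ADAMTS12 (-0.37), while ADAMTS2 and ADAMTS5 passed in all 6 fits that left out 1 library. ADAMTS7 (0.38, limma adjusted p = 0.0274) was added without NT3 replicate 2. The ADAMTS1 call was lost without NT3 replicate 1 or NT4 replicate 3 (limma adjusted p = 0.0671 and 0.0523). Partners differed as well: the fibrillin gene FBN1, whose product forms the microfibrils, was 0.97 higher in NT4, RELN 0.82, A2M 0.79, ADAMTSL1 0.76, BGN 0.54, PCOLCE 0.53 and TIMP3 0.50, and ADAMTS8 was 0.87 lower. The fibroblast marker sum was 451735 to 510774 in NT3 and 535711 to 562545 in NT4, and its part in these differences was not tested.

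Of the knockdowns against the controls, CCND1 passed in 4 of 10 members (31.0% of all genes) and CDK4 in 2 of 9 (16.0%). CDK6 passed in 6 of 10 (41.9%) and the dual knockdown in 8 of 9 (44.0%). With CCND1 knockdown ADAMTS2 rose and ADAMTS1, ADAMTS5 and ADAMTS6 fell. With CDK4 knockdown ADAMTS1 and ADAMTS5 fell. With CDK6 knockdown ADAMTS2, ADAMTS7 and ADAMTS9 rose and ADAMTS1, ADAMTS3 and ADAMTS6 fell. In the dual knockdown ADAMTS5, ADAMTS7, ADAMTS9 and ADAMTS12 rose and ADAMTS1, ADAMTS3, ADAMTS4 and ADAMTS6 fell. The 4 comparisons share their 6 control libraries, so likeness between them is not evidence of its own. The CCND1 and CDK6 counts include ADAMTS2, which was picked in comparisons with these control libraries. Its tests are not independent of that choice.

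Requiring the test against NT3 alone and NT4 alone in the same direction left few members. With CCND1 knockdown it left 0 of 10, where 11.6% of all genes met it. Against NT4 alone limma passed 0 members (19.3% of all genes), and 2 of them, ADAMTS2 and ADAMTS6, had an unadjusted p under 0.05. CDK4 knockdown left ADAMTS1 (4.67% of genes), and CDK6 knockdown left only ADAMTS2 (21.0%). That ADAMTS2 test uses the control libraries of the comparisons in which it was picked, so it is not independent of that choice. The dual knockdown left 3 of 9: ADAMTS12, higher, and ADAMTS4 and ADAMTS6, lower (23.6%). Without dual replicate 1, whose ADAMTS4, ADAMTS7 and ADAMTS9 values were the highest of its group, 4 members passed against the controls: ADAMTS1, ADAMTS4, ADAMTS6 and ADAMTS12.

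**Figure D5:**
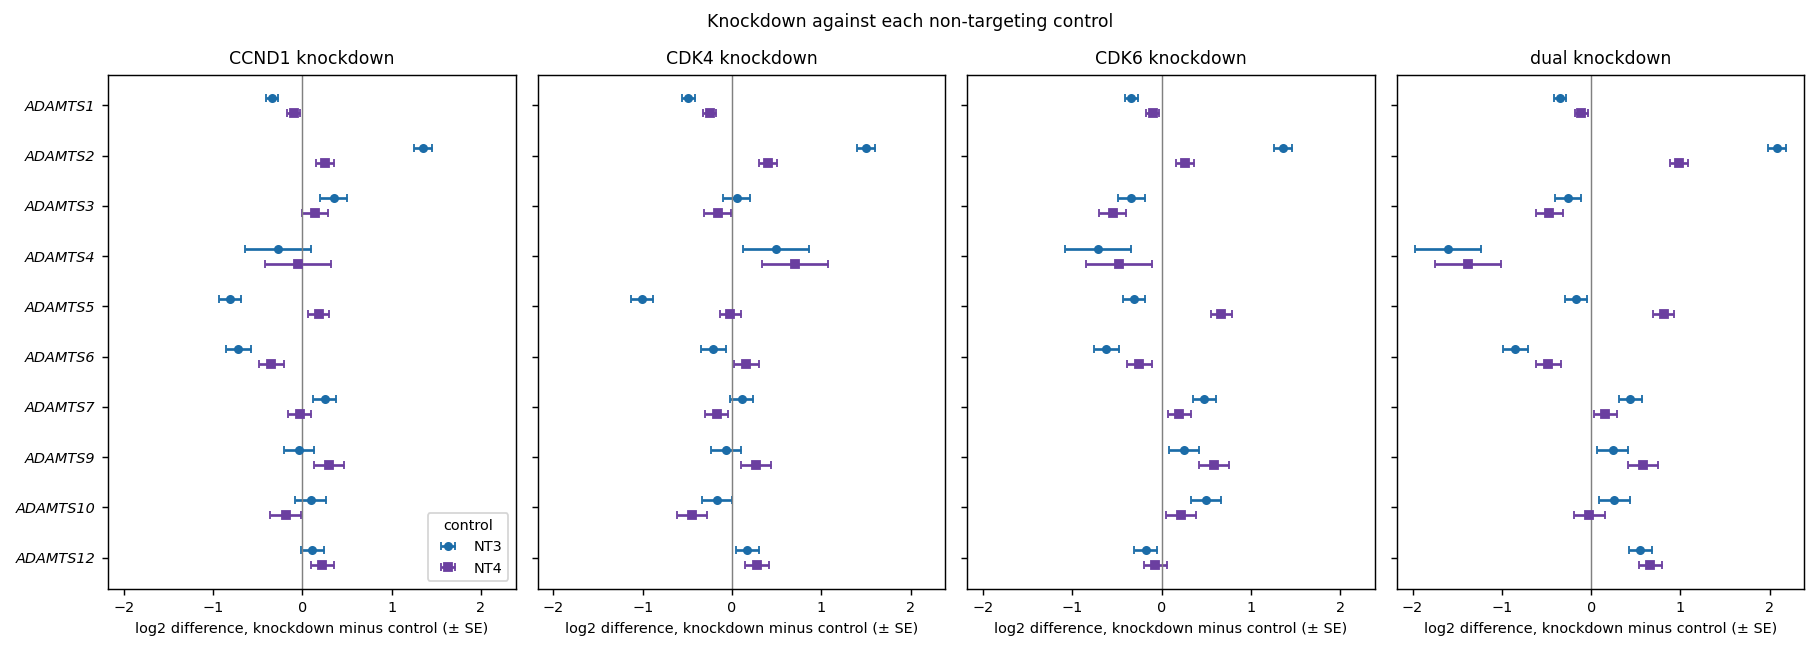
Log2 difference (± SE) of each ADAMTS gene in the 4 knockdowns against NT3 (circles) and against NT4 (squares), n = 3 libraries a group. ADAMTS2 differs between the controls in every panel (dual knockdown 2.08 and 0.98), ADAMTS5 changes side in the CCND1, CDK6 and dual panels, and ADAMTS12 lies at 0.55 and 0.66 in the dual panel.

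Without any control group, CDK6 differed from CDK4 knockdown in 6 of 9 members (34.8% of all genes). ADAMTS5 (0.69), ADAMTS7 (0.37) and ADAMTS10 (0.67) were higher with CDK6 knockdown, and ADAMTS4 (-1.20), ADAMTS6 (-0.41) and ADAMTS12 (-0.35) were lower. The libraries of all 9 tested members did not overlap, against 51.7% of all genes. The ADAMTS12 call was lost without any 1 of the 6 libraries (limma adjusted p = 0.0555 to 0.108), and without CDK4 replicate 1 the count was 3. ADAMTS4 did not pass without CDK4 replicate 2 (-1.04, limma adjusted p = 0.0696), and ADAMTS7 and ADAMTS6 were lost in 3 and 4 of the 6 fits. The dual differed from CDK4 knockdown in 4 of 9 members (30.6%), with ADAMTS5 and ADAMTS12 higher and ADAMTS4 and ADAMTS6 lower (-0.64, limma adjusted p = 0.00132). Against the sum of the single knockdown effects, a test added after the values were seen, the dual knockdown differed in 2 of 9 members (6.35%), ADAMTS1 (0.36) and ADAMTS5 (0.66), and neither passed against NT4 alone or without CDK6 replicate 1. From CDK6 knockdown it differed in 1 of 9, ADAMTS12 (13.0%), and without dual replicate 1 also in ADAMTS4 (-1.41, limma adjusted p = 0.00870).

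The genes around the family were counted in CDK6 and dual knockdown against the controls as well. Of all tested genes 21.1% passed as higher and 20.8% as lower with CDK6 knockdown, and 22.5% and 21.5% in the dual. Of 7 inhibitor and clearance genes 6 rose with CDK6 knockdown and 4 in the dual. RECK, a membrane-anchored protease inhibitor, was 4085 to 4237 with CDK6 and 3584 to 3898 with dual knockdown, above 2153 to 3052 in the controls. The rise was 0.70 and 0.53 (limma adjusted p = 2.70e-07 and 7.37e-06). With CCND1 knockdown RECK was higher still, at 4991 to 5060. TIMP4 rose by 0.89 with CDK6 knockdown and TIMP2 by 0.46 in the dual. Of the 5 activation and modification genes, the convertases PCSK7 (0.82 and 0.83) and PCSK5 (0.86 and 0.33) rose in both, the PCSK5 rise in the dual not passing against NT4 alone (limma adjusted p = 0.353). THSD4, which encodes ADAMTSL6, rose by 0.93 and 0.75, and ADAMTS8 by 0.59 and 0.66, the latter not passing against NT3 alone (limma adjusted p = 0.436 and 0.256). THSD4 averaged 4156 with CDK6 knockdown, 3916 with CCND1 knockdown and 3844 in proliferating cells.

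Of the 5 proteoglycan and partner genes 3 rose in each. DCN, which encodes decorin, rose by 0.66 with CDK6 and 0.59 with dual knockdown, and BGN by 0.75 and 0.44. The third with CDK6 knockdown was VCAN, which encodes versican (0.49, limma adjusted p = 0.00426). In the dual it was CD44 (0.38, limma adjusted p = 2.65e-06). The dual BGN rise did not pass against NT4 alone (limma adjusted p = 0.180). Of the 11 other substrates and partners, 5 rose and 4 fell with CDK6 knockdown, and 4 rose and 4 fell in the dual, where 21.1% and 20.8% of all tested genes rose and fell with CDK6 knockdown and 22.5% and 21.5% in the dual. RELN, a substrate cut by ADAMTS3, rose by 1.55 and 1.23. VEGFC fell by 0.61 with CDK6 knockdown, FN1 by 0.59, and TFPI2 fell by 1.01 in the dual. FBN1 rose by 0.80 in the dual knockdown and did not pass against NT4 alone (0.32, limma adjusted p = 0.103). The contractile marker CNN1 had a median of 2995 with CDK6 and 2557 with dual knockdown and lay at 1102 to 1541 in the controls. Smooth muscle markers summed to 10405 to 10982 with CDK6, 7526 to 8481 with dual and 4226 to 6268 in the controls. These sums were 10070 to 10725 with CCND1, 4584 to 4984 with CDK4 knockdown and 10332 to 10631 in proliferating cells. Their part in these results was not tested.

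Over the 18 irradiated libraries, the genes whose log2 values followed ADAMTS2 most closely, among genes above the median mean of 470, were XYLT2 (Pearson r = 0.96), LOX (0.96), SMAD3 (0.95), PTPN1 (0.95) and TADA3 (0.94). LOX, the lysyl oxidase that cross-links collagen, averaged 15176 in NT3, 26254 in NT4 and 34140 in the dual knockdown, and 16375 in proliferating cells. These libraries share 6 groups and the deposited scaling, so r is a description of the group order. Between members, the ADAMTS1 and ADAMTS2 pair had r = -0.72, and no other pair exceeded 0.7 in size.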

How the data were processed

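RNA-seq values of 21 IMR90 libraries in 7 labelled groups of 3 were analysed from a deposited table of normalised counts, an expression signal that is whole reads divided by 1 factor per library. The reads came back whole for 100% of values (tolerance 0.01). The submitters' processing notes name Trimmomatic 0.38.1, HISAT2 2.2.1, featureCounts 2.0.3, FastQC 0.74, MultiQC, DESeq2 2.11.40.8 and hg38. Strand and multi-mapping settings are not given in the sources used here. Genes are listed by Entrez ID up to 140467, so other ADAMTS genes are not analysed here. Column names carry the group and a running code, not the replicate numbers of the titles. Replicate numbers here are names in column order and do not follow the code, in which the 18 irradiated libraries form 3 consecutive sets of 6, each with every irradiated group once.

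Log2(value + 1) of the 11579 genes at 10 or more in at least 3 libraries was fitted with limma 3.58.1 (R 4.3.3), 1 mean per group and a trended variance. Tests were two-sided, with Benjamini-Hochberg adjustment over all 11579 genes and a threshold of 0.05. Alternatives were edgeR 4.0.16 and DESeq2 1.42.0 on whole reads, other pseudocounts and filters, median centring, single controls and left-out libraries, and a block by code set, which was added after the values were seen. All 10 members are named. Partner genes named for a comparison are among the up to 3 per list past the threshold with the largest differences. Not all of these are named. The members, lists and tests were chosen with earlier results of these data known. Gene positions and exon lengths are from GENCODE on hg38. Scripts were tested on simulated data.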

Additional observations from a re-analysis of the deposited data

Results flagged for a closer look

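In 2 members the dual knockdown differed from what adding the effects of both single knockdowns gives, by a test of that difference itself, which was added after the values were seen. For ADAMTS1 the dual level was 0.36 above the sum on the log2 scale (SE 0.09, limma adjusted p = 0.0159), and for ADAMTS5 it was 0.66 above it (SE 0.16, limma adjusted p = 0.0155). Over all genes 6.35% passed. Against NT3 alone the departures were 0.48 and 1.15, and against NT4 alone 0.24 and 0.17, where neither passed (limma adjusted p = 0.183 and 0.706). The ADAMTS1 call was also lost without CDK4 knockdown replicate 2 (0.34, limma adjusted p = 0.0551) and without CDK6 knockdown replicate 1 (0.33, limma adjusted p = 0.0513) or 3 (0.34, limma adjusted p = 0.0544). The ADAMTS5 call was lost without CDK6 knockdown replicate 1 (0.60, limma adjusted p = 0.0501). In turn ADAMTS12 (0.51, limma adjusted p = 0.0736 with all libraries) passed without NT3 replicate 3 (0.64, limma adjusted p = 2.05e-07) and against NT3 alone (0.57, limma adjusted p = 0.0345), but not against NT4 alone (0.46, limma adjusted p = 0.184). ADAMTS4 (-1.50, limma adjusted p = 0.0720) passed without dual knockdown replicate 1 (-2.01, limma adjusted p = 0.00628). For ADAMTS2, given without a test, the departure was -0.23, with -0.78 against NT3 alone and 0.32 against NT4 alone.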

How the results depend on the processing

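For 90 log2 differences of members, 1573 alternative values were set against the main fit. Of these 1460 stayed on the same side of the threshold, 75 lost the call, 31 gained it and 3 reversed. Untested ADAMTS2 values were instead held to its SD within groups, and 4 of them moved beyond it. A change of sign counted as reversed only where the main or the alternative value passed. The 1460 therefore include uncalled differences that changed sign, such as ADAMTS9 with CCND1 knockdown (0.13, and -0.04 against NT3 alone). Median centring and a pseudocount of 0.1 led to no lost, gained, moved or reversed value among the 90. The choice of control changed most. With NT4 alone the members that passed went from 8 to 5 for irradiated controls against proliferating cells. They went from 4 to 0 for CCND1 and from 2 to 1 for CDK4 knockdown. With NT3 alone they went from 8 to 5 for the dual knockdown. Fitting only the compared groups gave 2 for CCND1 and 4 for the dual knockdown. ADAMTS5 reversed for CCND1 (0.18, NT4 alone), CDK6 (-0.31, NT3 alone) and the dual knockdown (-0.17, NT3 alone), and the ADAMTS2 departure reversed with NT4 alone (0.32). The cause was not tested.

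Leaving out 1 library gave 6 to 8 members for irradiated controls against proliferating cells. For NT4 against NT3 it gave 2 to 6 (6 without NT3 replicate 3). The range was 3 to 5 for CCND1, 2 to 3 for CDK4 and 4 to 7 for CDK6 knockdown. Leaving out 1 library gave 4 to 8 for the dual knockdown (4 without dual replicate 1). It gave 3 to 4 for CDK6 against CDK4 knockdown, against 6 with all libraries, 1 to 2 for dual against CDK6 and 3 to 5 for dual against CDK4. Of 1435 alternative values of named partner genes, 1374 kept their call and direction, 61 lost the call and 0 reversed. The titles' replicate numbers are not in the column names, so the replicate block was taken from the 3 sets of consecutive codes, chosen after the values were seen. Libraries of 1 set deviated from their group means with r of -0.11 to 0.10 over 45 pairs. The median was 0.04, against -0.02 over 90 pairs from different sets. The labels do not say what a set stands for and these values do not settle it, so the main fit does not pair by set. Under this replicate block 8 members passed for irradiated controls against proliferating cells. For NT4 against NT3 4 passed (ADAMTS6 added, limma adjusted p = 0.0227). For CCND1, CDK4, CDK6 and dual knockdown 4, 2, 6 and 8 passed. For CDK6 against CDK4 knockdown 7 passed (ADAMTS3 added, limma adjusted p = 0.0486). The number was 1 for dual against CDK6 and 5 for dual against CDK4 knockdown (ADAMTS7 added, limma adjusted p = 0.0417). No member's call was lost. For 60 of 90 pairings of a library with another irradiated group, its best-correlated library there was of its own set. In each pairing 1 of the 3 libraries is of that set. This is a hint of shared structure from the data and not the design. The proliferating libraries lie outside the sets. A filter at a mean of 100 removed ADAMTS3, ADAMTS4 and ADAMTS10. Depth limits ADAMTS4 most, with 3 to 30 reads a library.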
